A study of Homo sapiens with 6 samples.

Results

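The S100 genes encode a family of small calcium-binding proteins, and 10 of them (S100A2, S100A3, S100A4, S100A6, S100A8, S100A9, S100A10, S100A11, S100A14 and S100P) were followed here in a colorectal cancer cell line carrying a microRNA vector. The members are those listed for the family whose symbol the array's annotation pairs with a probe set. All 10 were found, each with 1 probe set, among 14884 genes that the annotation names. RNA came from HCT116, an established human colorectal carcinoma line that some labels spell HTC116, and was read on whole-transcript arrays in 2 groups of 3. Cells of the first group carried an empty vector (titles with CoOE, genotype given as empty vector control). Those of the second are labelled as carrying a vector for miR-196b (titles with miR1966OE, genotype given as overexpressing miR-196b). Both were stably transduced and grown in the same McCoy's medium with serum and antibiotics. The labels call the arrays biological replicates. They do not say whether a group is a clone or a pool, or whether each array had its own transduction. The p-values here therefore set group differences against the spread between these cultures only. Where a group stems from a single transduction, an effect of the vector cannot be told apart from another difference between the lines.

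S100 proteins carry a pair of EF-hands, loops that bind calcium, and most act as dimers that open a binding surface for a partner protein when calcium rises. Inside the cell they bind annexins, cytoskeletal proteins and p53, and several are also released and bind receptors such as AGER (RAGE) and TLR4. In colorectal tumours S100A4 is known as a promoter of migration and metastasis, and S100A8 with S100A9 forms calprotectin, the neutrophil protein measured in stool as a sign of gut inflammation. The series title ties miR-196b to the migration of colorectal cancer cells, which is the setting in which the family is looked at here.

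The agent compared between the groups is a microRNA, which pairs with messenger RNAs mainly through its seed, bases 2 to 8 from its 5′ end. The mature sequences from RefSeq (GRCh38.p14) are printed with the seed in capitals, because the named probe set that differed most between the groups belonged to a family relative, MIR196A2.
hsa-miR-196b-5p: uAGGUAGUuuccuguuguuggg
hsa-miR-196a-5p: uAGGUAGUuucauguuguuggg
The first lies at chr7:27169528-27169549 on the minus strand, within MIR196B. The second is made from MIR196A2, at chr12:53991762-53991783 on the plus strand, and from MIR196A1, at chr17:48632532-48632553 on the minus strand. They share the seed and 21 of 22 bases, and differ by C12A, with positions counted from 1 at the 5′ end and the base of miR-196b first. Transcript sequences were not analysed here, so no seed site was looked for in the S100 messages.

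As a check of the labels, the probe set of MIR196B had a log2 signal of 7.97 ± 0.102 with the empty vector and 8.05 ± 0.144 in the arrays labelled miR-196b (SD, n = 3 each), while that of MIR196A2 was at 3.06 ± 0.167 and 10.6 ± 0.149 (SD, n = 3 each). These probe sets read precursor transcripts. The log2 difference of MIR196A2 was 7.55 (limma adjusted p = 4.53e-07), while that of the named gene, MIR196B, was only 0.08 (limma adjusted p = 0.819). Which microRNA the vector carried was not tested, and for this reason the second group is called by its label throughout. GALNT5, which the title names, was lower there by a log2 difference of -1.09 (SE 0.09, limma adjusted p = 0.0233). That call was lost with any 1 array left out (adjusted p 0.0519 to 0.179), with a replicate block, with all probe sets tested and without variance moderation, while the log2 difference stayed at -1.16 to -1.01 with arrays left out. HOXB7, named with it, had -0.64 (SE 0.08, limma adjusted p = 0.0974), and it passed under a robust prior with a trend (adjusted p = 0.00146) and with the dimmest 40% of named probe sets left out (0.0164). GALNT5 and HOXB7 were taken from the title of this same series, so their values are not an independent check. Since miR-196a and miR-196b share the seed, lower values of these genes cannot tell these microRNAs apart. The arrays correlated at 0.994 to 0.995 within groups and at 0.992 to 0.994 between them, over probe sets, which are not independent replicates. Of 6 measured epithelial markers, 5 lay above the dimmest 40% of named probe sets, EPCAM among them, against 1 of 6 myeloid markers, 0 of 7 squamous keratinocyte markers and 1 of 3 fibroblast markers. None of these markers passed the test between groups.

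None of the 10 S100 members passed the test between the arrays labelled miR-196b and the empty vector (limma over 16098 named probe sets, Benjamini-Hochberg adjusted p below 0.05). Over all named probe sets, 9 passed, or 0.0559%. At an unadjusted p below 0.05, 1 member passed, S100P, on the lower side, against 9.87% of all probe sets in either direction and 4.14% on the lower side. With the deposited log2 values, 5 members had a higher mean and 5 a lower one. Their log2 differences ran from -0.20 for S100P to 0.15 for S100A8 with a median of -0.04, and the median over all named probe sets was 0.0069. The median size of a member's difference, whatever its sign, was 0.14, and that of all named probe sets was 0.097.

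The intervals bound how far the array signals could have moved, given the spread of these replicates. The 95% interval of the difference included 0 for 9 of the 10 members, and stayed within 1.5-fold in both directions for 9. The widest was that of S100A3, whose lower end corresponds to a 1.51-fold lower signal. These bounds do not hold for the messages themselves, since the array signal can understate a change, as where a probe set is dim. At the largest p that passed over the whole array (2.68e-05), S100P would have needed a 1.61-fold difference to be called and S100A3 a 2.99-fold one, and the other 8 lay between.

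**Figure D1:**
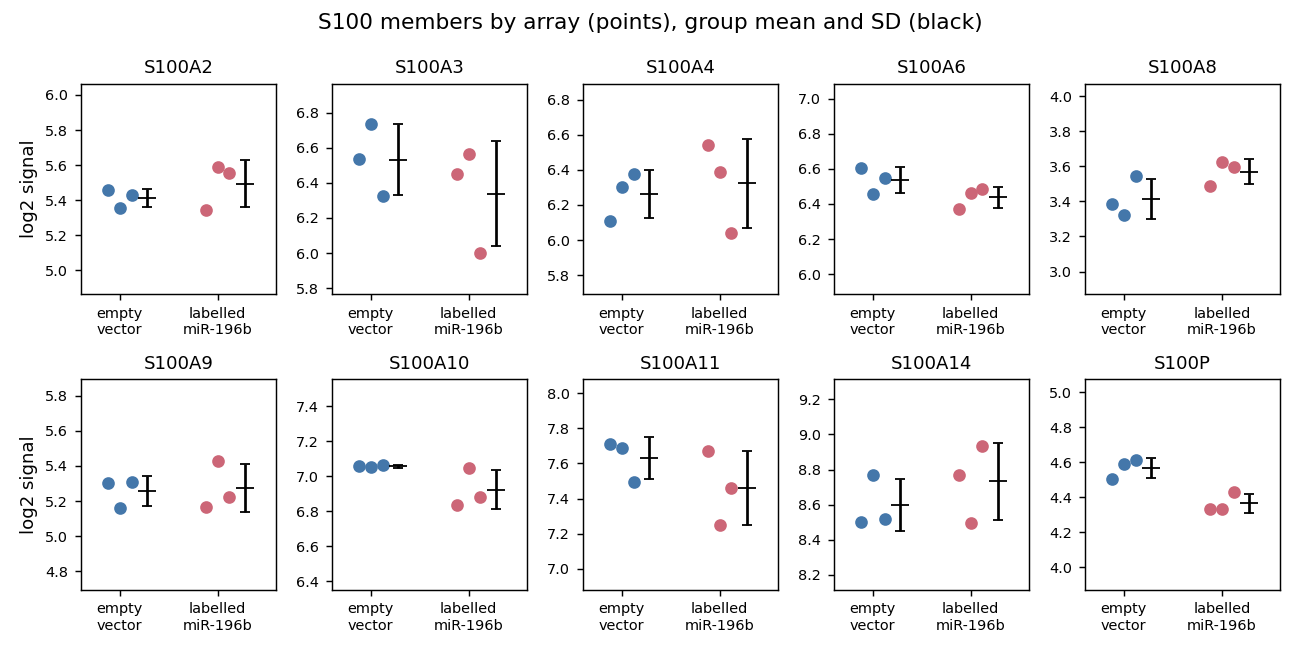
Log2 signal of each S100 member in each array (points; blue, empty vector; red, labelled miR-196b), with the group mean and SD in black (n = 3 each). Every panel spans 1.2 log2 units around its own centre, so heights may be compared within a gene only; the groups separate for S100P (gap 0.074) and barely for S100A10 (gap 0.0036).

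S100P, a member first described in placenta that binds ezrin and signals through AGER after secretion, stood lowest relative to the empty vector. Its probe set 16964735 gave log2 signals of 4.50, 4.59 and 4.61 with the empty vector and 4.33, 4.34 and 4.43 in the arrays labelled miR-196b. All 3 labelled arrays lay below all 3 control arrays, with 0.074 between the groups. The log2 difference was -0.20 (SE 0.07, 95% interval -0.38 to -0.03, limma adjusted p = 0.453), a 1.15-fold lower signal. An exact two-sided permutation test gave p = 0.1, its lower limit with 3 arrays a group. Its replicates were tight: only 10.5% of named probe sets had a smaller within-group SD. S100P was also among the dimmest 40% of named probe sets.

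S100A10 and S100A11 are members that pair with annexins. S100A10 (p11) joins ANXA2 in a complex that holds plasminogen at the cell surface and carries ion channels to the membrane. Its probe set 16693272 gave log2 signals of 7.06, 7.05 and 7.07 with the empty vector, and 6.84, 7.05 and 6.88 in the labelled arrays. The groups did not overlap, but the highest labelled array lay only 0.0036 below the lowest control array. The log2 difference was -0.13 (SE 0.08, 95% interval -0.32 to 0.05, limma adjusted p = 0.612; exact permutation p = 0.1). S100P and S100A10 were the 2 of 10 members without overlap, both lower, where 17.2% of all named probe sets did not overlap in either direction and 7.18% did so in the lower one.

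S100A11, which binds ANXA1 and takes part in membrane repair, had log2 signals of 7.71, 7.69 and 7.50 with the empty vector and 7.67, 7.25 and 7.46 in the labelled arrays (probe set 16693280). Replicate 1 of the labelled arrays sat among the controls, and the groups overlapped. Between groups it differed by a log2 value of -0.17 (SE 0.12, 95% interval -0.46 to 0.11, limma adjusted p = 0.665), and by -0.07 without labelled replicate 2 and -0.28 without labelled replicate 1. RefSeq lists 10 pseudogenes of S100A11, and whether its probes also read them was not examined here.

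S100A6, calcyclin, binds the ubiquitin-pathway protein CACYBP and rises in dividing cells. Its log2 signals were 6.60, 6.46 and 6.55 with the empty vector and 6.37, 6.46 and 6.48 in the labelled arrays (probe set 16693433). The 2 higher labelled arrays lay at or just above the lowest control array, so the groups overlapped, and the log2 difference was -0.10 (SE 0.08, 95% interval -0.28 to 0.08, limma adjusted p = 0.698). It was -0.06 without control replicate 1 or without labelled replicate 1.

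S100A4, the metastasis-associated member, which binds non-muscle myosin, varied more within each group than between them. Its log2 signals were 6.11, 6.30 and 6.37 with the empty vector, and 6.54, 6.39 and 6.04 in the labelled arrays (probe set 16693449), so the labelled arrays held both the highest and the lowest value. Between groups the log2 difference came to 0.06 (SE 0.14, 95% interval -0.27 to 0.39, limma adjusted p = 0.906). It was -0.05 without labelled replicate 1 and -0.02 without control replicate 1, so it has no settled direction.

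S100A3, a member best known from the hair cuticle, showed the largest scatter of the 10. Its log2 signals were 6.54, 6.73 and 6.33 with the empty vector and 6.45, 6.57 and 6.0 in the labelled arrays (probe set 16693459). Labelled replicate 3 was the lowest array for both S100A3 and S100A4, which lie close together in the genome. The log2 difference of S100A3 was -0.19 (SE 0.17, 95% interval -0.59 to 0.20, limma adjusted p = 0.730), and ran from -0.31 without labelled replicate 2 to -0.02 without labelled replicate 3. Its within-group SD exceeded that of 89.3% of named probe sets.

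S100A2, a nuclear member that p53 can induce, had log2 signals of 5.46, 5.36 and 5.43 with the empty vector and 5.34, 5.59 and 5.55 in the labelled arrays (probe set 16693465). Labelled replicate 1 was the lowest of the 6 arrays and the other 2 labelled arrays the highest. Its log2 difference was 0.08 (SE 0.09, 95% interval -0.13 to 0.29, limma adjusted p = 0.788), and ran from 0.03 without labelled replicate 2 to 0.16 without labelled replicate 1.

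S100A14, an epithelial member, had log2 signals of 8.50, 8.77 and 8.52 with the empty vector and 8.77, 8.50 and 8.93 in the labelled arrays (probe set 16693482). Both groups ran from about the same floor, and labelled replicate 3 was the highest array. Its log2 difference was 0.14 (SE 0.13, 95% interval -0.17 to 0.45, limma adjusted p = 0.756). It was 0.04 without labelled replicate 3 and 0.25 without labelled replicate 2.

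Neither calprotectin gene passed the test. S100A8 had log2 signals of 3.38, 3.32 and 3.54 with the empty vector and 3.49, 3.62 and 3.60 in the labelled arrays (probe set 16693414). Control replicate 3 lay above labelled replicate 1, so the groups overlapped, and the log2 difference was 0.15 (SE 0.09, 95% interval -0.05 to 0.36, limma adjusted p = 0.595). S100A8 lay among the dimmest 40% of named probe sets, and none of its arrays was tested against background.

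S100A9, the other subunit of calprotectin, had log2 signals of 5.30, 5.16 and 5.31 with the empty vector and 5.17, 5.43 and 5.23 in the labelled arrays (probe set 16671139). The log2 difference was 0.02 (SE 0.09, 95% interval -0.21 to 0.24, limma adjusted p = 0.969), the smallest of the 10 in size, and it was -0.06 without labelled replicate 2 and -0.03 without control replicate 2. Of the 6 measured myeloid markers, 4 had a higher and 2 a lower mean in the labelled arrays, with log2 differences from -0.20 for CD68 to 0.31 for CSF1R. CSF1R, the receptor of a macrophage growth factor, was the 1 marker of the 6 without overlap, where 17.2% of all named probe sets did not overlap. Its log2 signal was 3.999 ± 0.0141 with the empty vector and 4.31 ± 0.230 in the labelled arrays (SD, n = 3 each, limma unadjusted p = 0.0336, adjusted p = 0.476). CSF1R was among the dimmest 40%. CD14, the monocyte receptor, had -0.01. Summed over the 6 markers, the log2 signals came to 25.0 to 25.7 with the empty vector and 25.3 to 26.5 in the labelled arrays. The RNA came from a cultured carcinoma line, and 5 of the 6 markers were among the dimmest 40% of named probe sets. These sums were therefore not read as a share of myeloid cells. The part of the markers in the values of S100A8 and S100A9 was not tested. In bulk RNA, fewer cells making a message and less message per cell cannot be told apart.

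**Figure D2:**
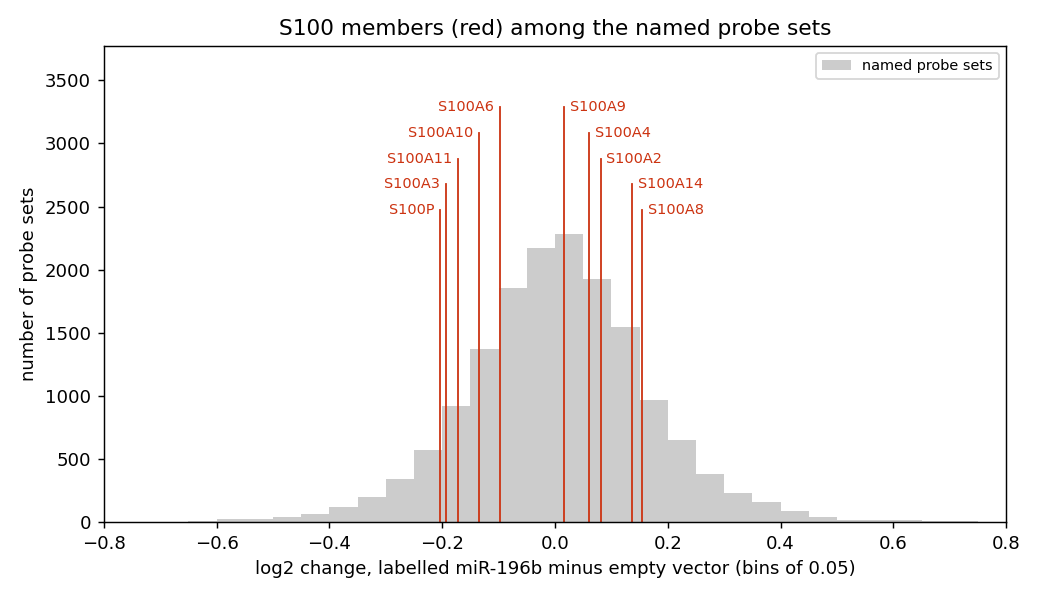
Distribution of the log2 difference (labelled miR-196b minus empty vector, in bins of 0.05) over 16098 named probe sets in grey, with each S100 member as a red line; line heights only keep the names apart. The members lie between -0.20 and 0.15, inside the bulk of the grey distribution; 15 probe sets fall outside the axis limits of 0.8.

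Set against all named probe sets, the members' differences lay inside the bulk of the distribution. A difference larger than that of S100P, in either direction, was found at 18.5% of named probe sets. For S100A3 the share was 20.2%, and for S100A9 it was 90.8%. The spread within the labelled arrays was larger than within the control arrays for 7 of the 10 members. This count was not set against all named probe sets and was not tested. For S100A10 the SD was 0.0081 with the empty vector and 0.110 in the labelled arrays.

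None of the other S100 genes passed the test either. Of 11 listed, 10 had a named probe set, and 0 passed over all genes, or at an unadjusted p below 0.05 (9.87% of all named probe sets), in limma. Their log2 differences ran from -0.15 for S100A5 to 0.10 for S100A13, with a median of -0.01. S100A13, which helps export growth factors that lack a signal peptide, was the 1 gene of these 10 without overlap between the groups, where 17.2% of all named probe sets did not overlap. Its log2 signal was 5.71 ± 0.0502 with the empty vector and 5.81 ± 0.0292 in the labelled arrays (SD, n = 3 each), a log2 difference of 0.10 (SE 0.07, limma adjusted p = 0.663). S100A16, a widely expressed member, had a log2 difference of -0.04, and S100A1, a heart and muscle member, had -0.02. S100A5 had -0.15, and S100Z, which lies outside the main cluster, had -0.07. The log2 differences were 0.09 for S100A7 (psoriasin) and 0.06 for its close copy S100A7A, whose signal the probes could share. They were -0.01 for S100A12, which neutrophils release, 0.0048 for S100B, a glial member, and -0.07 for S100G, the intestinal calcium carrier calbindin. Of these 10 genes, 8 were among the dimmest 40%, S100A13 and S100A16 being the exceptions.

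Members were chosen by symbol, and where they lie in the genome was looked at as well. In the RefSeq annotation 9 of the 10 lie on chromosome 1, in the gene cluster that also holds the S100 fused-type genes of the outer skin, and S100P lies on chromosome 4. S100A6, S100A5, S100A4, S100A3 and S100A2 lie there in this order, and their log2 differences were -0.10, -0.15, 0.06, -0.19 and 0.08, so neighbours did not share a sign throughout. S100A5 and S100A4 overlap on the same strand in RefSeq, S100A13 and S100A1 on opposite strands, and S100A8 with S100A7A likewise. Probe positions were not used here, so shared signal within these pairs was not examined.

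At one end of the cluster, S100A10, S100A11 and the 7 fused-type genes that come after them in the plotted order all had lower means in the labelled arrays. That order holds listed genes only, and leaves out others measured on chromosome 1, such as IVL and LORICRIN. The run was seen in the plot and was not tested. The fused-type genes encode large skin proteins with an S100 domain, filaggrin (FLG) the best known. Their log2 differences ran from -0.23 for TCHHL1 to -0.07 for FLG2, with a median of -0.13, where 7733 of the 16098 named probe sets had a lower mean. None passed over all genes or at an unadjusted p below 0.05 in limma, where 0.0559% and 9.87% of all named probe sets did. The groups of each overlapped, where 17.2% of all named probe sets did not overlap. All 7 were among the dimmest 40%. CRNN had -0.19, FLG -0.14 and TCHH -0.13. Single arrays moved these values: TCHHL1 had -0.02 without labelled replicate 3 and -0.10 without control replicate 1. In the same way CRNN came to -0.08 without control replicate 3, TCHH to -0.05 without control replicate 2, and FLG to -0.08 without labelled replicate 1, all still lower.

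**Figure D3:**
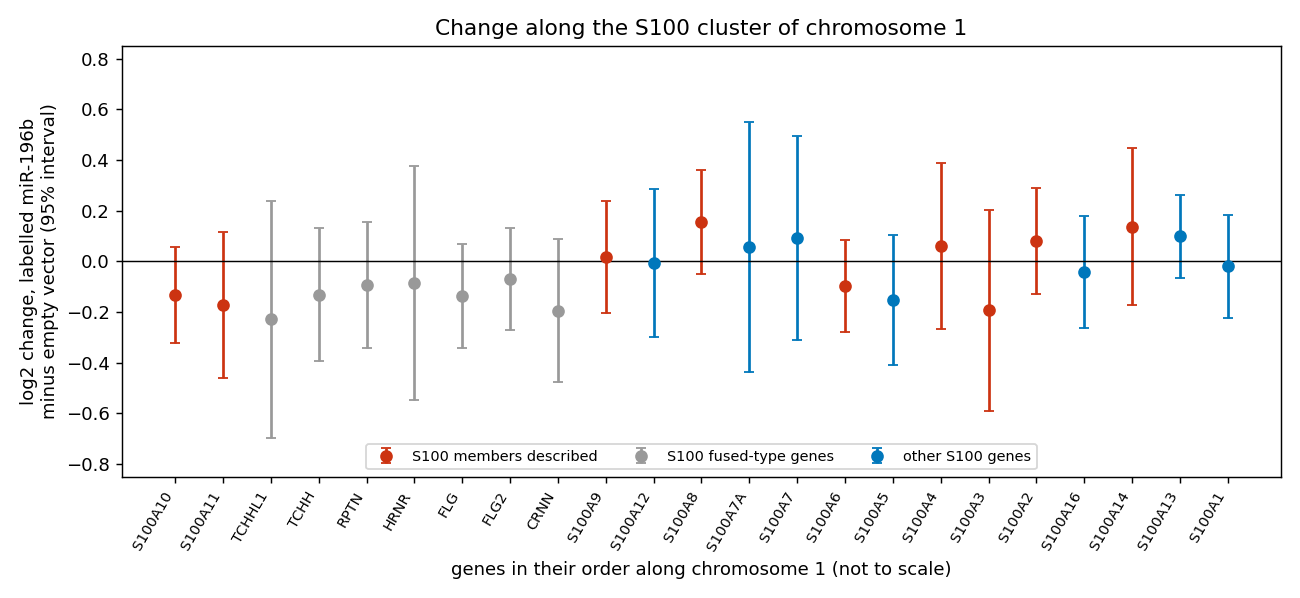
Log2 difference (labelled miR-196b minus empty vector) with its 95% interval for the 23 measured S100 and S100 fused-type genes of chromosome 1, in chromosomal order but not to scale. The leftmost 9 points, from S100A10 to CRNN, are all below 0, and each interval in the plot includes 0.

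The regions before the gene starts differ within the family. RefSeq windows of 250 bases before the start were found for all 10 members, 13 windows in all because S100A2 and S100A8 have several. The letters TATAAA, searched on both strands, were in the windows of 4 members (S100A4, S100A8, S100A9 and S100P), 5 of 13 windows, where 10.7% of 35116 windows in the table hold them. The windows of S100A8 overlap, and 2 of them hold the same TATAAA, so this motif is counted in both. The 250 bases of the 2 members whose groups did not overlap are shown, with TATAAA in capitals, since they are of opposite kinds. S100P (GRCh38.p14, chr4:6693628-6693877, plus strand) holds the motif, which begins 28 bases before the start, and 4 CG pairs. S100A10 (GRCh38.p14, chr1:151993860-151994109, minus strand) has no TATAAA in this window and 24 CG pairs, against a median of 11 over all windows.
S100P: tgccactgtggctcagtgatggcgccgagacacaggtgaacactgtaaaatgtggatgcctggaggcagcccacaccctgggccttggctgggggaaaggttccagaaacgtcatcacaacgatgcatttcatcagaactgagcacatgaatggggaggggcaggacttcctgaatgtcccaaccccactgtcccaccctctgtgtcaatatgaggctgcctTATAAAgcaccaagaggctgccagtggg
S100A10: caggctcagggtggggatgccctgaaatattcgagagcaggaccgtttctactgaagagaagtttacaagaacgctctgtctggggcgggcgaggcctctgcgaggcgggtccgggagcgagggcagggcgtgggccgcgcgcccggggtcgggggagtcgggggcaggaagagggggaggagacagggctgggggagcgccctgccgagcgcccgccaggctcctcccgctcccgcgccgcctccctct
Both genes had lower means in the labelled arrays, with log2 differences of -0.20 and -0.13. The other 3 members whose windows hold TATAAA had 0.06 (S100A4), 0.15 (S100A8) and 0.02 (S100A9). Of the 6 members without it in their windows, 2 had a higher mean, S100A2 and S100A14. The windows of S100A6 (24 CG pairs) and S100A11 (15) also lay above the median in CG pairs, with log2 differences of -0.10 and -0.17, and those of the other 7 members lay below it. S100A3, with 4 CG pairs, had -0.19. No test was made over these groupings.

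The partners of S100 proteins were looked at next. Of 38 listed partner and receptor genes, 23 had a named probe set. None passed over all genes in limma, and 3 had an unadjusted p below 0.05, ANXA6 higher and ANXA1 and MCAM lower, against 9.87% of all named probe sets. The groups did not overlap for 6 of the 23, against 17.2% of all named probe sets. Of these, 4 were higher (ANXA5, ANXA6, BSG and IQGAP1) and 2 lower (ANXA1 and MCAM). Of the 23, 12 had a higher and 11 a lower mean, with a median log2 difference of 0.01.

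The annexins, calcium-dependent membrane binders that several S100 dimers bridge, are the partners of S100A10 and S100A11 named above. ANXA1, the partner of S100A11, had log2 signals of 10.999, 11.113 and 11.087 with the empty vector and 10.797, 10.844 and 10.886 in the labelled arrays. The groups did not overlap, and the log2 difference was -0.22 (SE 0.07, limma adjusted p = 0.421), beside -0.17 for S100A11. ANXA2, the partner of S100A10, had a log2 difference of -0.18 (SE 0.09, limma adjusted p = 0.572), beside -0.13 for S100A10, and its groups overlapped.

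ANXA6, which binds S100A6 among others, went the other way, with log2 signals of 9.13, 9.20 and 9.18 with the empty vector and 9.48, 9.41 and 9.58 in the labelled arrays. The groups were apart, and the log2 difference was 0.32 (SE 0.08, limma adjusted p = 0.347). ANXA6 passed with a trended, robust variance prior (limma adjusted p = 0.0305), and its adjusted p ran from 0.0305 to 0.609 over all alternatives. ANXA5, a binder of exposed phosphatidylserine, had a log2 difference of 0.16 (SE 0.07, limma adjusted p = 0.507).

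Among the 9 measured receptors, MCAM (CD146), a cell adhesion molecule reported to bind S100A8 with S100A9, had log2 signals of 5.50, 5.30 and 5.31 with the empty vector and 5.07, 5.07 and 4.71 in the labelled arrays. All labelled arrays lay below the controls, and the log2 difference was -0.42 (SE 0.12, 95% interval -0.70 to -0.13, limma adjusted p = 0.390). BSG (basigin), a receptor of S100A9, had 0.12 (limma adjusted p = 0.611), CD36, a fatty acid receptor, -0.21 (0.572) and CD68, a lysosomal glycoprotein, -0.20 (0.669). The group had 4 higher and 5 lower means. AGER was counted as higher by the brightest of its 7 probe sets (log2 difference 0.10, limma adjusted p = 0.707). Its other probe sets had lower means, with log2 differences of -0.04 each.

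Cytoskeletal partners had 3 higher and 2 lower means among 5 measured of 10 listed. IQGAP1, a scaffold that S100P binds, had a log2 difference of 0.11 (limma adjusted p = 0.606), and EZR (ezrin), which S100P activates, had -0.06 (0.801). TPM1, a tropomyosin, had 0.12 (0.650) at its brighter probe set and -0.03 at the other, and LCP1 (plastin) had -0.12 (0.676). VIM (vimentin), the other gene measured, was outside the rule for naming and is given for its values. It has 3 probe sets, all with higher means. The brightest had a log2 difference of 0.17 (limma adjusted p = 0.824), which was -0.05 without labelled replicate 2 and -0.0011 without control replicate 1. The other two were among the dimmest 40% and had groups that did not overlap, with 0.56 (unadjusted p = 0.0119, adjusted p = 0.401) and 0.28 (adjusted p = 0.507). The direction for EZR flipped to 0.0070 with a repeated quantile normalization.

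Of the p53 and ubiquitin pathway partners, 2 of 7 listed were measured. CACYBP, the partner of S100A6, had a log2 difference of -0.0034 (95% interval -0.17 to 0.17, limma adjusted p = 0.990), and it changed sign with 4 of the arrays left out in turn. S100PBP, a nuclear binder of S100P, had 0.10 (limma adjusted p = 0.697). In the plasminogen system, which S100A10 serves, PLG itself was the only gene of 5 with a named probe set, at 0.35 (limma adjusted p = 0.587) and among the dimmest 40%. It was 0.15 without labelled replicate 2 and 0.53 without labelled replicate 3.

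**Figure D4:**
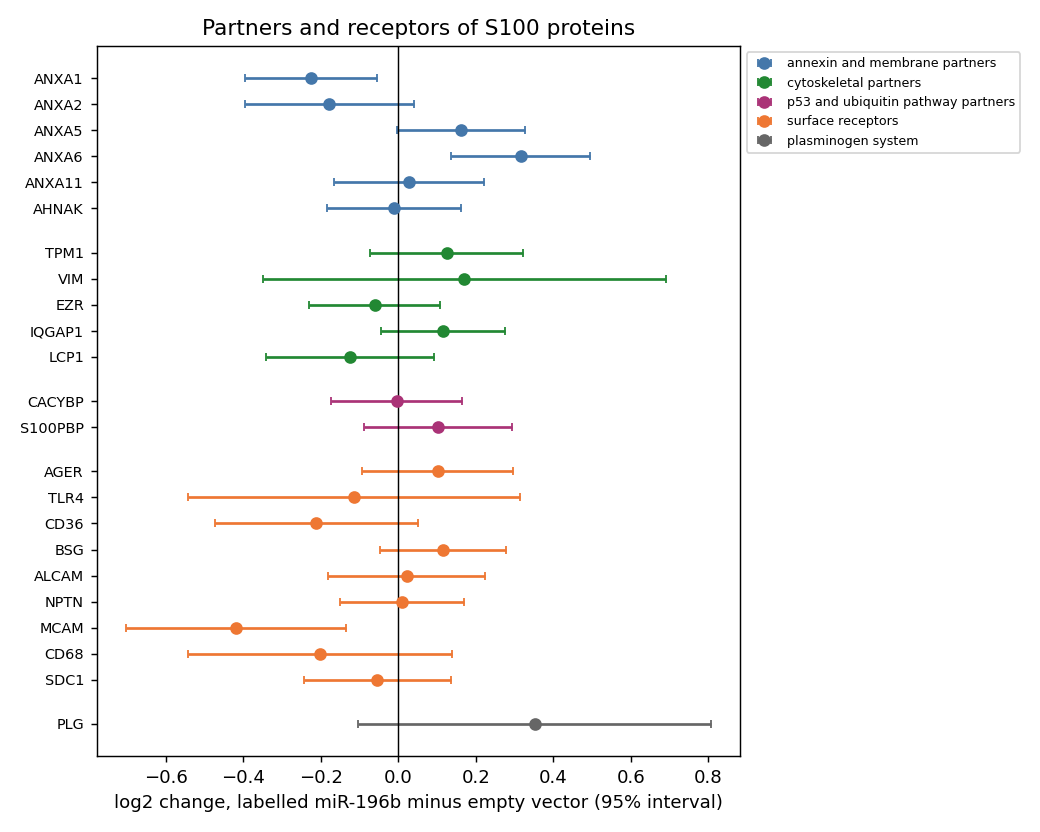
Log2 difference (labelled miR-196b minus empty vector) with its 95% interval for the 23 measured partners and receptors of S100 proteins, coloured by group, each gene at its brightest probe set. The intervals of ANXA1, ANXA6 and MCAM exclude 0 before any adjustment for the number of genes; none passed after it.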

How the data were processed

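The deposited values are log2 signals, 1 per probe set and array, which the authors made with RMA and Partek 6.6, per the submitters' processing notes, where neither order nor options appear. Base 2 is that of RMA and is not written in the file. RMA includes a quantile normalization, which removes differences in overall level. The genome build and scan dates were not given in the sources used here, so no batch was tested. Of 53617 probe sets, 16098 carried 1 gene symbol in the platform annotation, 0 several, and 37519 none here; gene identifiers matched RefSeq (GRCh38.p14), used for names and gene order.

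In R 4.3.3 with limma 3.58.1, all named probe sets were fitted (lmFit and eBayes, no trend, not robust, no filter), with 4 residual and 3.23 prior degrees of freedom, with Benjamini-Hochberg adjustment over all of them and a threshold of 0.05. The fit was tested on simulated data. The number of arrays limits the precision. Genes with several probe sets were counted by the brightest. All members and other S100 genes are named, and up to 4 genes of smallest p per partner or fused-type list. Members and lists were chosen with earlier results of these data known. MIR196A2, VIM, CSF1R and AGER were named for their values. Alternatives were a filter on the dimmest 40%, a trended robust variance prior, centring on medians, quantile normalization applied again, array weights, a replicate block, each array left out, all probe sets, and no moderation; averaging a member's probe sets did not apply.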

Additional observations from a re-analysis of the deposited data

How the results depend on the processing

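No S100 member passed at an adjusted p below 0.05 under any alternative run (limma adjusted p from 0.366 to 0.985 over 138 values), and 134 of these kept the member's direction. The other 4 came from leaving out single arrays, over which the log2 difference ran from -0.049 to 0.20 for S100A4 and from -0.060 to 0.068 for S100A9. At an unadjusted p below 0.05, 1 member was called in the fit described, S100P. Its unadjusted limma p ran from 0.0118 without moderation to 0.135 with the trended, robust prior. With all probe sets tested it was 0.0511, and without control replicate 3 it was 0.088. S100P and S100A8 had no value without the dimmest 40%. The count of 0 called held for the other S100 and the fused-type genes too, while 1 partner (ANXA6) passed with the trended, robust prior. The count of all named probe sets called, 9 in the fit described, was 22 without the dimmest 40%, 91 with that prior, 2 with all probe sets tested, 5 without moderation, and 2 to 3 with an array left out.

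With the replicate number as a block, 1 named probe set and 0 S100 members were called; same-numbered arrays deviated together at correlations of only 0.0085 to 0.037, so the numbers were not taken to pair the cultures. Directions also changed for values near 0. EZR had 0.0070 and S100A12 5.9e-05 with a repeated quantile normalization, S100A12 0.010 and S100B -0.045 with array weights, and S100B -0.0028 with median centring. With arrays left out in turn, log2 differences ran from -0.032 to 0.017 for CACYBP, -0.00073 to 0.14 for MIR196B, -0.064 to 0.050 for S100A1, -0.091 to 0.093 for S100A12, -0.092 to 0.041 for S100A16, -0.077 to 0.22 for S100A7, -0.19 to 0.26 for S100A7A, -0.13 to 0.16 for S100B, -0.17 to 0.0080 for S100G, -0.11 to 0.01 for S100Z, and -0.051 to 0.32 for the brightest VIM probe set. Values that kept their direction but moved by over 1.5 times ran from -0.26 to -0.088 for S100A5, -0.31 to -0.11 for CD36, -0.36 to -0.073 for CD68, -0.19 to -0.078 for LCP1, 0.046 to 0.13 for S100PBP and 0.077 to 0.18 for TPM1. The cause was not tested. HOXB7 gained a call without the dimmest 40% and with the trended, robust prior. GALNT5 lost its call with the block (adjusted p = 0.124), with all probe sets (0.0746), without moderation (0.165) and with any array left out (0.0519 to 0.179).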
